A study of Mus musculus with 2 samples.

Results

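Distal intergenic contigs are stretches of the mouse genome that were covered by reads on one strand and lay far from every gene known to an early annotation. They were taken from the authors' contig table on the mm9 assembly, in which each contig is an unbroken run of aligned reads over both replicates together. A contig was kept when it was at least 200 bases long, lay on an autosome, overlapped no Ensembl 65 gene span on either strand and was more than 10 kb from every gene span. These conditions use length and position only, not the level of transcription. They held for 79795 of all 818912 contigs (9.74%), and for 13.1% of the 607478 contigs of that length on autosomes.

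The RNA came from the cerebellum of C57BL/6J mice, the standard inbred laboratory strain, aged 8 weeks. The labels name no treatment and give the health state as unknown. The design holds 1 group of 2 libraries, numbered 1 and 2 as biological replicates, each from tissue pooled over male and female littermates. Both share one donor record, so the spread between them may be partly technical, and no contrast between conditions can be made. Polyadenylated RNA longer than 200 nucleotides was sequenced with strand information, after ribosomal RNA depletion and addition of spike-in RNAs, as paired-end reads (PE101 in the labels).

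Transcripts outside annotated genes have several known forms. Some are long intergenic non-coding RNAs, which are capped, spliced and polyadenylated like messenger RNAs but encode no known protein. Others are pieces of ordinary genes that an annotation has not yet recorded: many brain genes have alternative promoters far upstream of the first annotated exon, and neurons also extend the 3' ends of many messages. Splicing separates these cases from short isolated fragments, because a read that crosses a splice junction ties a contig to another exon.

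The splice junctions of the cerebellum tied some long distal contigs, and some shorter ones, to annotated genes, several of them neuronal. The contigs with the highest signal of all were a different group, described below. A later annotation places the first exon of several of the linked genes at or near the far edge of the contig. The sequences around 8 of these distant starts are shown here, because these starts lie outside the older gene spans. They were read from RefSeq on GRCm38.p6, the build also called mm10, and each runs from 170 bases before the start to the 30 bases after it, which are in capitals.
Aldh1a1 (chr19:20492413-20492612, plus strand): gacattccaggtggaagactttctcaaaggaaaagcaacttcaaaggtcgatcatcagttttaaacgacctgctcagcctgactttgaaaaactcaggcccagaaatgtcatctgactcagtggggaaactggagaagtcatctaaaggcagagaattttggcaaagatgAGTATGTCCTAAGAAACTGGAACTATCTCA
Gpm6a (chr8:54779264-54779463, plus strand): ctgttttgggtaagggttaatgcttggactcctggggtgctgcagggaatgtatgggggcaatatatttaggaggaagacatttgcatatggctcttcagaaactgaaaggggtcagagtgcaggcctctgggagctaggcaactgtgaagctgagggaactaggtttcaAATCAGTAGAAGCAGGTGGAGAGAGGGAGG
Fgf12 (chr16:28753214-28753413, minus strand): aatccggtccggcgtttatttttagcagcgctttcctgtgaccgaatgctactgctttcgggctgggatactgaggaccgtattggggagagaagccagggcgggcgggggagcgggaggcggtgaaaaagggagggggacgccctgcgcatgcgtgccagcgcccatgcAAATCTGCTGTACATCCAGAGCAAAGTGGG
Cplx2 (chr13:54302386-54302585, plus strand): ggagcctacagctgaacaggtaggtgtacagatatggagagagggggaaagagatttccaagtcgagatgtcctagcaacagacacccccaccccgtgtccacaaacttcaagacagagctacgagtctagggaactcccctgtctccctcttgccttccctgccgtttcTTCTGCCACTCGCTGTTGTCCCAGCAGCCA
Epb41l3 (chr17:69075507-69075706, plus strand): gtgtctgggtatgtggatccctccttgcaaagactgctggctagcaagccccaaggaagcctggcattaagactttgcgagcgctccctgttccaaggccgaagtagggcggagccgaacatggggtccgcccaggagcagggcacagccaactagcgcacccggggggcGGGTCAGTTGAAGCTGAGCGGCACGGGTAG
Kcnab1 (chr3:64949042-64949241, plus strand): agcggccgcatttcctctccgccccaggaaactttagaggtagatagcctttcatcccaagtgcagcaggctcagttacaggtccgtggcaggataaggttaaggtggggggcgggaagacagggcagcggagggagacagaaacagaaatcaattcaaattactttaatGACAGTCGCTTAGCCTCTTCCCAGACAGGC
Ppp1r13b (chr12:111908026-111908225, minus strand): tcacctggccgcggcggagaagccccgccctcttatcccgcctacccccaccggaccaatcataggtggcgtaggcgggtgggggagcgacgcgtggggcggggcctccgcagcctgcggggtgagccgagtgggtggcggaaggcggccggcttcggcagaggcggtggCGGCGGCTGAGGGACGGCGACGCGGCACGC
Rbfox1 (chr16:5884623-5884822, plus strand): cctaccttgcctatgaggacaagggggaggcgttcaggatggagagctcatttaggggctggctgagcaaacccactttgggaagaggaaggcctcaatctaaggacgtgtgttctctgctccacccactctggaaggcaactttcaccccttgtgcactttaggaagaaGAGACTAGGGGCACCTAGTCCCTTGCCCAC

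These 8 genes are Aldh1a1, Gpm6a, Fgf12, Cplx2, Epb41l3, Kcnab1, Ppp1r13b and Rbfox1, which were chosen after their junction values were seen. The match of start and contig was made by distance from the 3' end of each gene within its own build, so no coordinate was converted. The M21 span is also longer for 5 of the 8, but not for Gpm6a (106 kb in both annotations), Cplx2 (12.6 kb) and Kcnab1 (269 kb). The GC content of the 8 windows was 42.5 to 76.0%, with a median of 55.0%, against a median of 54.0% over 32851 RefSeq promoter windows of the same length. They held 0 to 27 CG dinucleotides with a median of 6, against a median of 5 over all windows. The windows thus included both CG-poor starts, such as Gpm6a with 0 and Rbfox1 with 2, and CG-rich ones, such as Ppp1r13b with 27. On either strand, the letters TATAAA were in 0 of the 8 windows and in 9.18% of all windows. The letters CCAAT were in 2 of 8, those of Fgf12 and Ppp1r13b, and in 29.0% of all windows. The letters GGGCGG were in 4 of 8, those of Fgf12, Epb41l3, Kcnab1 and Ppp1r13b, and in 32.0% of all windows. These are counts of letters, not of bound sites.

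Both libraries were sequenced to a similar depth, with 79771873 and 80281011 estimated gene counts in replicates 1 and 2. The labelled tissue was checked against its markers in the gene tables, in TPM, a length-corrected relative abundance. The 6 granule neuron markers had a median of 340 TPM and the 4 Purkinje neuron markers 249 TPM, against 1.91 TPM for 4 forebrain markers, of which Tbr1 was at 0.315 TPM and Neurod2 at 40.6 TPM. The summed choroid plexus markers were at 2104 TPM in replicate 1 and 770.4 TPM in replicate 2, and those of red cells at 412 and 879 TPM. The part of these 2 cell sources in the distal signal was not tested.

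Most distal contigs were short and thinly covered. The coverage signal of the authors' table, in aligned bases per kb of contig per Mb of aligned bases, had a median of 0.054 in distal contigs, with quartiles at 0.038 and 0.081. Its median was 0.059 in contigs outside genes but within 10 kb of one, 0.058 in contigs lying only antisense to a gene, and 0.088 in contigs overlapping a gene on its own strand. The median distal contig was 369 bases long, against 581 bases for contigs on the strand of a gene, and it held 1004 aligned bases, the content of about 9.94 reads. A signal of 1 or more was reached by 416 distal contigs (0.521%). The share was 0.535% within 10 kb of a gene, 0.737% for antisense contigs and 7.58% for contigs on the strand of a gene. The contig table pools both replicates, so a single contig's signal has no replicate error.

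**Figure D1:**
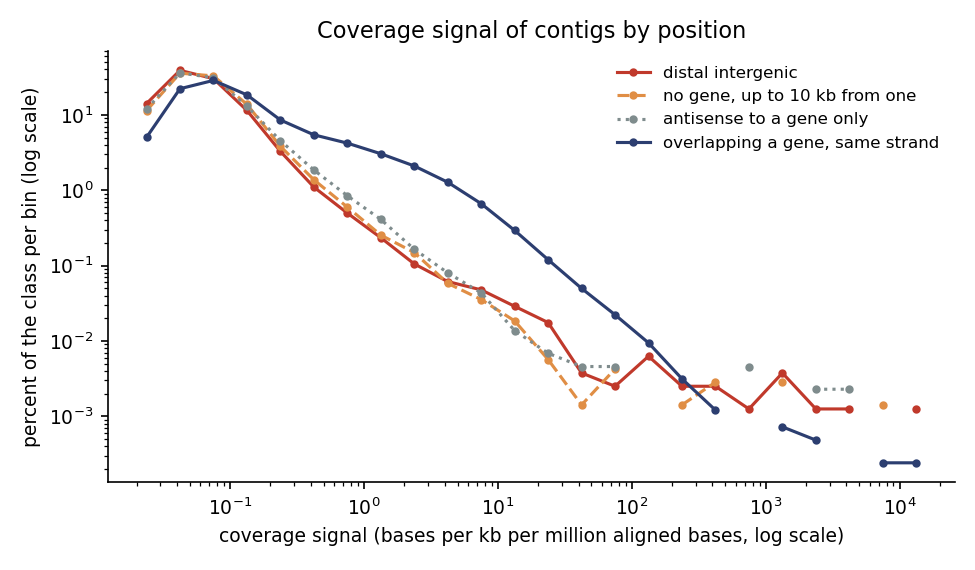
Percent of the contigs of each class (y axis, log scale) in bins of coverage signal (x axis, bases per kb per Mb of aligned bases, log scale), for distal contigs and the 3 other classes of autosomal contigs of 200 bases or more. Points mark bins that hold contigs. The distal curve runs with the near and antisense classes up to a signal of about 10 and, between about 1 and 100, lies below the class on the strand of a gene. It continues to the highest bins, where its maximum is 12500 and that of the class on the strand of a gene is 12600.

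Contigs at the limits of the definition had much the same signal on either side. Contigs up to 1 kb beyond the limit of 10 kb (n = 2957) had a median of 0.056 and those up to 1 kb inside it (n = 3400) a median of 0.055. Distal contigs of 200 bases or up to 9 bases more (n = 3934) had a median of 0.041 and those up to 10 bases under that length (n = 4118) a median of 0.043. The table also gives each contig a fraction that it does not name, lower for contigs with more aligned bases. It was at most 0.1 for 57.4% of distal contigs, against 74.3% of all contigs of the same length.

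Distance from genes did not order the signal. The nearest gene span was 38.0 kb away at the median, with quartiles at 18.8 and 91.0 kb. The median signal was 0.055 at 10 to 20 kb, 0.054 in each of the 3 bins from 20 to 500 kb, and 0.0515 beyond 500 kb, where 748 contigs lay. The 5 farthest contigs, on chromosomes 14, 3 and 7, were 994 to 1071 kb from a gene, had signals of 0.030 to 0.102 and were crossed by 0 junction reads. The farthest of all was chr14:81493366-81493565, beyond Olfm4, a secreted glycoprotein gene.

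Chromosomes differed in their share of distal contigs. On chromosome 16, 19.7% of contigs were distal, with a median signal of 0.068, the highest of the autosomes. Chromosome 11 had the lowest share, 7.68%, and a median signal of 0.049. Chromosome 16 holds the longest stretch of distal transcription, upstream of Rbfox1, which is described separately.

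Length and signal rose together over most of the range. The median signal was 0.046 in the 54509 contigs of 200 to 500 bases, 0.065 in those of 500 to 1000 bases, 0.114 in those of 1 to 5 kb, 0.277 in those of 5 to 10 kb and 0.424 in the 234 contigs of 10 kb or more. Those 234 were 0.293% of distal contigs and carried 14.8% of their aligned bases. A long contig needs unbroken coverage, so length and depth are not independent measures.

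A small group of short contigs did not follow this order. The contig with the highest signal, 12500, was 588 bases long (chr3:5860318-5860905, plus strand, between Pex2 and a gene that is 478 kb away) and alone carried 33.2% of all distal aligned bases. The next were chr14:105114984-105115315 on the minus strand with a signal of 3600, chr18:68851702-68851974 on the plus strand with 2480 and chr1:104524647-104524935 on the minus strand with 1320. The 9 highest carried 52.2% of distal aligned bases and the 20 highest 54.9%. These 20 were 214 to 1448 bases long, and the lowest of them had a signal of 37.8.

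All distal contigs together held 2.38% of the aligned bases of autosomal contigs of 200 bases or more. Without the single highest contig this share was 1.60%, and without the 20 highest it was 1.09%. Mean coverage over the 50.6 Mb of distal contigs was 21.2 bases per base, and 9.54 without the 20 highest. With all contigs kept, it was 14.1 within 10 kb of a gene, 48.1 for antisense contigs and 65.8 for contigs on the strand of a gene. The mm9 sequence was not used here, so it was not examined which repeats or gene copies these short contigs hold, and reads shared with other copies could add to their signal.

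**Figure D2:**
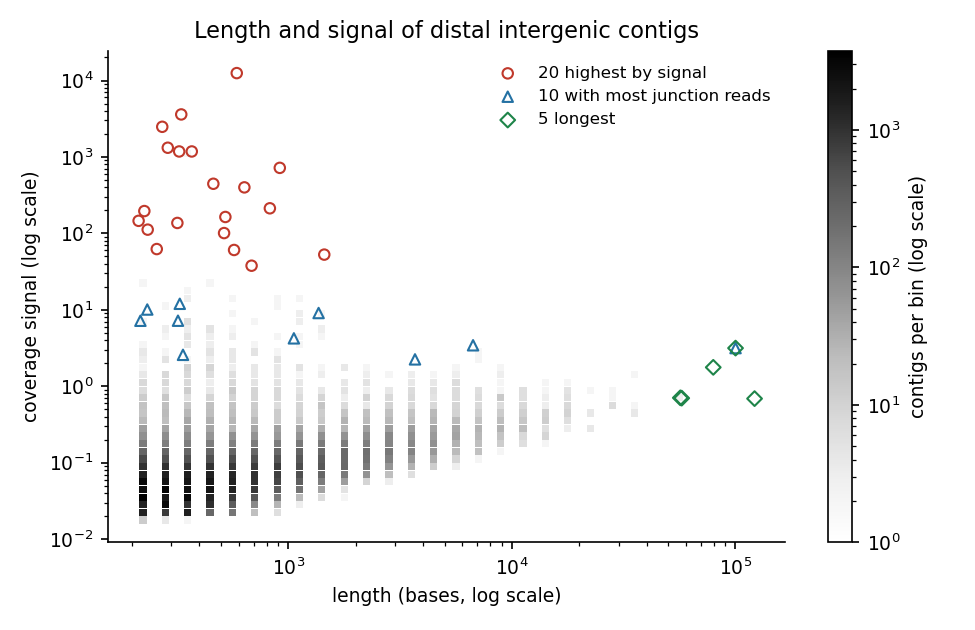
Length in bases (x axis, log scale) and coverage signal in bases per kb per Mb of aligned bases (y axis, log scale) of the 79795 distal contigs, with grey squares shaded by the number of contigs per bin and symbols for the 20 highest by signal, the 10 with the most junction reads and the 5 longest. The 20 highest lie apart from the bulk at lengths of 214 to 1448 bases, while the 5 longest, of 56662 to 121714 bases, have signals between 0.69 and 3.16.

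The junctions of the highest contigs seldom carried a mark that most other well read junctions carry. Each deposited junction carries a mark, C, of 0 or 1, whose meaning the file does not give. Among all junctions of 10 or more reads, 95.9% carried C = 1, and among those touching a distal contig 85.3%. Of the 20 contigs with the highest signal, 12 had junctions that were read at least 10 times and in both replicates, and 4 of these 62 junctions carried it. Of the 13 such junctions of the highest contig, 0 carried it. The best read of the 13 lay within that contig, over gaps of 36 to 98 bases. Another of the 20 highest, chr1:138261452-138261686 on the plus strand, had 16 such junctions, of which 0 carried the mark. The best read of the 16 spanned 117.5 to 117.6 kb. A further one, chr6:3150757-3151672 on the plus strand, had a signal of 720 and 4 such junctions, again 0 with the mark. These 4 lay within the contig, over gaps of 54 to 144 bases.

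Distal contigs were spliced less often than contigs within genes. A junction with at least 1 read ended within 10 bases of 13635 distal contigs on their strand (17.1%, exact 95% binomial interval 16.8 to 17.4%, which covers counting error only). The share was 19.5% for contigs within 10 kb of a gene, 22.6% for contigs antisense to a gene and 33.6% for contigs on the strand of a gene. With a junction of at least 10 reads the distal share was 1.30%. It was 1.36% for contigs within 10 kb of a gene, 1.61% for antisense contigs and 18.1% for contigs on the strand of a gene. The other classes are longer or deeper, and neither was matched here.

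Most distal junctions rested on a single read. The 29855 junctions touching a distal contig held 139590 reads, 72009 in replicate 1 and 67581 in replicate 2. A single read supported 71.8% of them, against 64.3% of all 1125475 junctions. Both replicates held reads for 15.5% of the distal junctions, against 24.4% of all junctions. None of the distal junctions carried A = 1, a second unexplained mark that 16.2% of all junctions carry.

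Contigs with many junction reads were longer and better covered at the median, but they included short ones. The 1807 distal contigs with 10 or more junction reads (2.26%) had a median length of 882 bases and a median signal of 0.234, and they held 71.0% of distal aligned bases. The 66160 contigs with 0 junction reads had a median length of 356 bases and a median signal of 0.051. Of the 20 contigs with the highest signal, which hold 54.9% of distal aligned bases, 16 were among the 1807, and of the 10 contigs with the most junction reads 5 were 218 to 338 bases long. Junction reads here include those over short gaps within 1 contig, as in the highest contig, so not all of them lead to another contig or a gene. Deeper contigs can gather more junction reads, so the comparison is a description of the same coverage from 2 sides.

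Junction reads of the 2 replicates were compared contig by contig. Of the 1807 contigs with 10 or more, 441 (24.4%) were at least 2-fold apart, at a median of 22 reads. The share was 24.2% for contigs within 10 kb of a gene and 26.3% for antisense contigs, at medians of 22 and 20 reads. Over all such contigs it was 6.86%, at a median of 216 reads. With 100 or more reads, 10 of 226 distal contigs (4.42%) and 236 of 55923 of all contigs (0.422%) were 2-fold apart. Of the 10, 8 were higher in replicate 1, as were 169 of the 236.

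Where the well supported junctions led was then followed. Of the junctions touching a distal contig, 1396 had at least 10 reads and reads in both replicates. Both ends lay in the same contig for 254 of them, 465 joined it to another distal contig, 187 to a gene on the same strand and 33 to a gene span of the other strand. The other 457 ended in no gene and no distal contig. Joined contigs formed 251 chains of 2 or more, which took in 652 contigs, and 45 chains spanned 50 kb or more.

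The largest chains by number held 12 contigs. One ran over 186 kb on the minus strand of chromosome 13, between Ftl1-ps1 and Erap1, an aminopeptidase that trims antigenic peptides. The other ran over 147 kb on the minus strand of chromosome 10, between Zwint, a kinetochore protein gene, and Pcdh15, a protocadherin gene. The longest chain, with 5 contigs over 759 kb, lay upstream of Rbfox1.

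Distal contigs were spliced to 128 annotated genes on their strand, through 187 junctions and 157 contigs, with 7177 reads in replicate 1 and 6538 in replicate 2. The contigs lay upstream of the gene for 74 genes, downstream for 50 and on both sides for 4. Of the linked genes, 107 are in the later annotation GENCODE M21, and the span of 58 of these (54.2%) is at least 10 kb longer there, against 2.67% of all 32620 genes found in both annotations. By side, 43 of 68 genes with upstream contigs and 13 of 37 with downstream contigs had grown by that much. Long genes were not matched in this comparison.

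Orientation went with length. Among the 234 contigs of 10 kb or more, 108 (46.2%) lay upstream of their nearest gene on the same strand and carried 59.6% of the bases of these 234. Another 79 (33.8%) lay downstream on the same strand, 37 upstream on the opposite strand and 10 downstream on the opposite strand. Among distal contigs under 1 kb, 21.9% lay upstream and 36.2% downstream on the same strand. Contigs within 10 kb of a gene had 17.6% upstream and 40.0% downstream on the same strand.

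**Figure D3:**
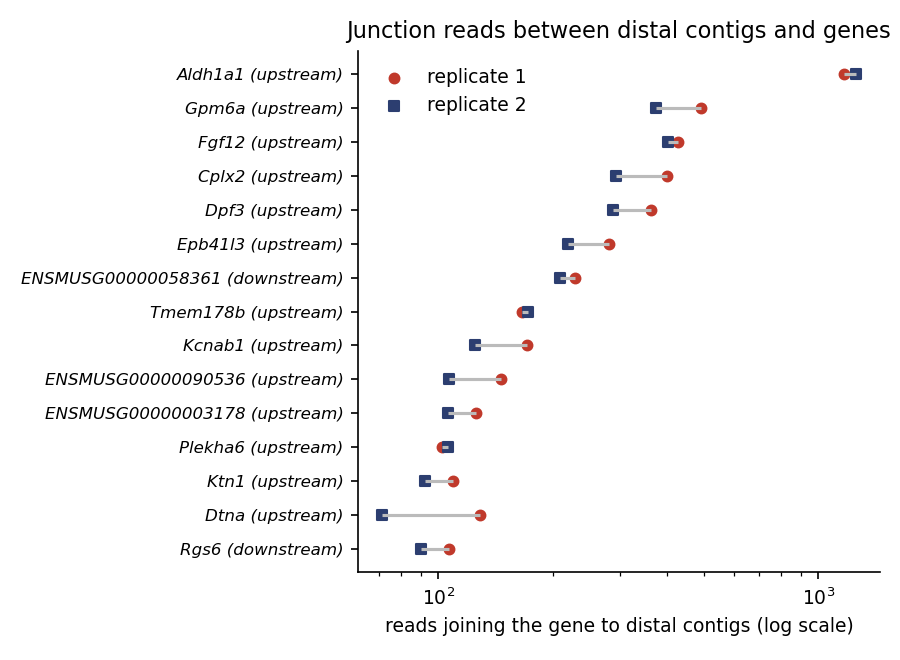
Junction reads that join distal contigs to a gene of the same strand (x axis, log scale) in replicate 1 (circles) and replicate 2 (squares), for the 15 genes with the most such reads, by symbol or Ensembl identifier, and the side on which the contigs lie. Aldh1a1 has the most, 1169 and 1258 reads, and in the 15 genes the 2 replicates are under 2-fold apart.

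The most linked gene was Aldh1a1, a retinaldehyde dehydrogenase that makes retinoic acid, with 1169 reads in replicate 1 and 1258 in replicate 2 joining it to contigs upstream. Its M21 span is 151 kb, against 41.5 kb in Ensembl 65, chr19:20676451-20717952 in mm9. The contig with the most junction reads of all distal contigs, 3142 in replicate 1 and 3503 in replicate 2, lay 107 kb before the gene at chr19:20567836-20569201, with a signal of 9.09. It was joined by 1635 and 1864 reads over an intron of 59.6 kb to a second contig, chr19:20627223-20630908. From that second contig 516 and 559 reads led directly to the gene. From a further contig, chr19:20630931-20634379, another 621 and 648 reads led to the same position in the gene. Several upstream exons of Aldh1a1 were thus joined to one position in the gene, and 11 of 11 supported junctions there carried C = 1. The RefSeq start lies 109 kb upstream of the Ensembl 65 start, 765 bases outside the far edge of the first linked contig. By that distance it falls inside a further distal contig, chr19:20566722-20567780, with a signal of 4.24. That contig was joined to the first by 1238 and 1341 reads over an intron of 573 bases. The gene itself was at 10.97 and 12.8 RPKM in replicates 1 and 2 over its annotated exons.

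The next genes act at the neuronal membrane and synapse. Gpm6a, a membrane glycoprotein of neuronal growth cones, was joined by 493 reads in replicate 1 and 375 in replicate 2 to a contig of 3302 bases, chr8:55864716-55868017, over an intron of 258 kb. The far edge of that contig lay 79 bases from the RefSeq start. Fgf12, an intracellular fibroblast growth factor homologue that binds voltage-gated sodium channels, was joined by 427 and 402 reads to chr16:28718688-28753456 on the minus strand, a contig of 34.8 kb with a signal of 1.29. Its main junction, with 416 and 396 reads, spanned 354 kb, and a small intron of 169 bases inside the contig had 809 and 689 reads. Fgf12 covers 593 kb in M21 and 285 kb in Ensembl 65, and its RefSeq start was 105 bases from the contig's edge.

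Cplx2, a complexin that binds SNARE proteins and controls transmitter release, was joined by 399 reads in replicate 1 and 294 in replicate 2 to chr13:54403984-54424115, over an intron of 72.5 kb. That contig was joined in turn by 466 and 343 reads to chr13:54397096-54402310, over an intron of 9.18 kb. The RefSeq start lay at the edge of the inner contig, 66 bases away, and thus not at the outer one. All 5 supported junctions of this region carried C = 1.

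Epb41l3, which encodes the membrane skeleton protein 4.1B, had 281 reads in replicate 1 and 220 in replicate 2, and its RefSeq start lay 2 bases from the edge of a contig 81.1 kb upstream. A second contig of Epb41l3, 23.8 kb upstream, had 23 and 60 reads, fewer in both replicates than the 258 and 160 of the first. Kcnab1, a beta subunit of voltage-gated potassium channels, had 171 and 125 reads over an intron of 317 kb, and a RefSeq start inside its contig, 306 bases from the far edge. Kcnma1, the calcium-activated BK potassium channel, had 99 and 71 reads to a contig 187 kb upstream, whose far edge was 8130 bases from the RefSeq start. Cacna1a, the pore of the P/Q-type calcium channel that is prominent in Purkinje cells, had 80 and 81 reads through 4 junctions. Ppp1r13b, which encodes the p53-binding protein ASPP1, had 103 and 83 reads and a RefSeq start inside its contig, 176 bases from the far edge.

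For other genes the contig lay where RefSeq has no start. Ppargc1a, a coactivator that drives mitochondrial biogenesis, was joined by 44 reads in replicate 1 and 73 in replicate 2 over an intron of 364 kb to chr5:52246542-52304023, a contig of 57.5 kb on the minus strand with a signal of 0.70. It is one of the 5 longest distal contigs. A further 32 and 42 reads joined that contig to one 203 kb more distant. The RefSeq start of Ppargc1a is at its Ensembl 65 start. Plekha6, with 102 and 106 reads to a contig 61.4 kb upstream, and Tjp1, the tight junction protein ZO-1, with 42 and 34 reads to a contig 134 kb upstream, likewise have their RefSeq start at the annotated one. M21 does extend both, Plekha6 to 139 kb, against 57.3 kb in Ensembl 65, and Tjp1 to 232 kb, against 75.1 kb. In all, 52 of the 78 genes with an upstream contig have a RefSeq start, and in 12 of these (23.1%) it lay within 1 kb of the far edge of a linked contig.

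Links of Dpf3, a subunit of BAF chromatin remodelling complexes, were of 2 kinds. One junction of 260 kb, with 351 reads in replicate 1 and 264 in replicate 2, carried C = 1 and joined the start of the gene span to chr12:84707129-84713547. The other 3, with 10 to 17 reads each over both replicates, carried C = 0 and had introns of almost one length, 269.07 kb. M21 gives Dpf3 274 kb, against 137 kb in Ensembl 65. Its RefSeq start lies 137 kb upstream of the Ensembl 65 start, and thus short of the contig chr12:84707129-84713547, which lies 255 kb upstream.

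Downstream links concerned fewer genes. The most reads, 229 in replicate 1 and 209 in replicate 2, joined ENSMUSG00000058361, whose identifier has no match in M21, to 2 contigs 107 and 154 kb past its end. Rgs6, a regulator of G protein signalling, had 107 reads in replicate 1 and 90 in replicate 2 to a contig of 223 bases. That contig lay 268 kb past the end of Rgs6 and held only 417 aligned bases, with a signal of 0.039. Scaf8, which binds the C-terminal domain of RNA polymerase II, had 106 and 91 reads to 3 contigs 27.2 to 92.2 kb past its end. Dnah7b, an axonemal dynein heavy chain, had 86 and 88 reads to 4 contigs 299 to 402 kb past its end. These contigs were 201 to 335 bases long and thinly covered, with signals of 0.049 to 0.149. The contig with 84 of the reads held 1081 aligned bases, and the one with 69 held 797. Why coverage was so low beside the junction reads at Rgs6 and Dnah7b was not tested.

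Gene ends alone missed further links, because some junctions landed just short of an annotated start. Of the 457 junctions that ended in no gene, 18 ended within 100 bases of a gene of the same strand, 16 of them on its upstream side. They concerned 13 genes, several of them synaptic or adhesion genes. Cacna1e, an R-type calcium channel, had 91 reads in replicate 1 and 75 in replicate 2, ending 1 base before the gene. Fat1, an atypical cadherin, had 42 and 43 reads in its main junction, and its relative Fat3 had 43 and 25. Lingo1, a receptor component that limits axon growth, had 29 and 43 reads in its main junction, Shank2, a scaffold of the postsynaptic density, 14 and 11, and Tnrc6b, a partner of Argonaute proteins, 27 and 24. The largest by far belonged to Rbfox1.

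Rbfox1 encodes a neuronal RNA-binding protein that regulates alternative splicing. It spans 1526 kb in M21 and 603 kb in Ensembl 65, where it starts at chr16:6809315. Upstream of it lay the longest cluster of distal contigs, made by joining contigs of 1 strand up to 5 kb apart. It held 69 contigs on the plus strand over 845 kb (chr16:5878194-6723063), of which 98.8% was covered, and 5.05% of all distal aligned bases. Junction reads in it numbered 2593 in replicate 1 and 2194 in replicate 2.

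The junctions of this stretch formed an ordered path into the gene. The intron chr16:5885958-6173697, which left the longest distal contig (chr16:5884576-6006289, 122 kb, signal 0.69), had 86 reads in each replicate. From close to its end the intron chr16:6173761-6487911, with 117 reads in replicate 1 and 113 in replicate 2, led to a small exon between positions 6487911 and 6487960. That exon lies in the contig with the highest signal of the stretch (chr16:6466760-6566817, 100.06 kb, signal 3.16).

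From that exon the intron chr16:6487960-6809299 led to 15 bases before the annotated start, with 797 reads in replicate 1 and 730 in replicate 2. The exon was also reached from about 460 kb upstream by 3 junctions with neighbouring donors, the largest with 390 and 303 reads. A further path ran over the contig chr16:6616409-6643487 and entered the gene at the same place with 107 and 109 reads. All 12 supported junctions of the stretch carried C = 1, and the 5 contigs they touch were 27.1 to 122 kb long.

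**Figure D4:**
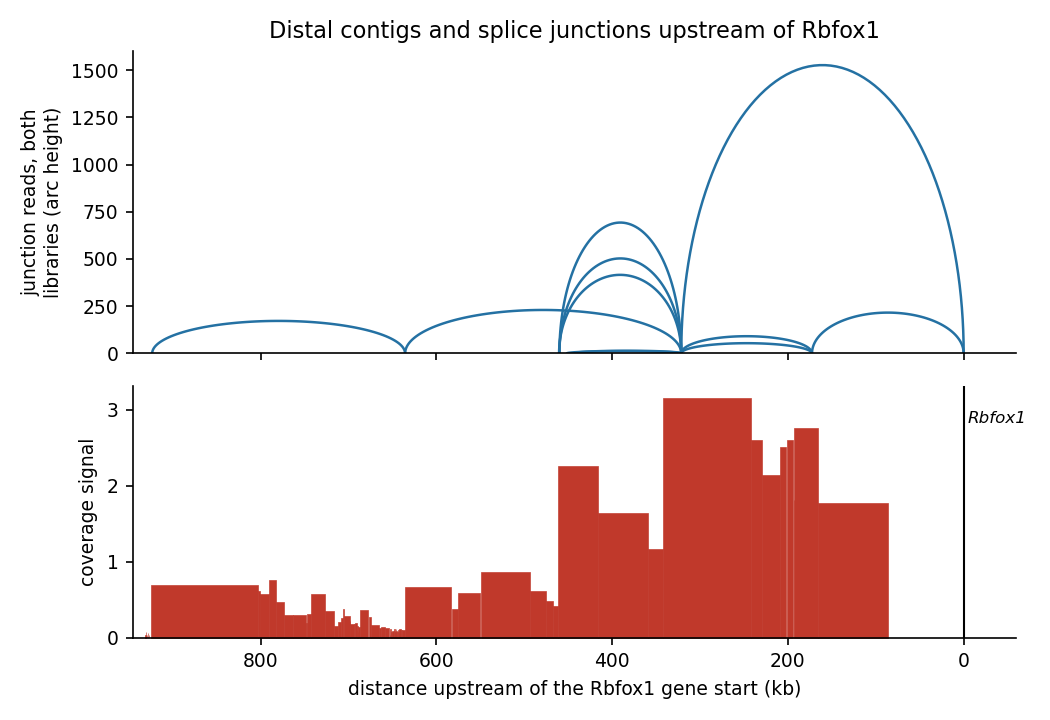
Upper panel: the splice junctions of 10 or more reads upstream of Rbfox1, each drawn as an arc between its ends whose height is the number of reads of both replicates. Lower panel: coverage signal (bases per kb per Mb of aligned bases) of the distal contigs there, each bar as wide as the contig; the x axis of both is the distance upstream of the Ensembl 65 gene start in kb. The tallest arc, 1527 reads, joins the exon 321 kb upstream to the gene, and the signal is highest, 3.16, around that exon.

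The RefSeq start of Rbfox1 nearest to this pattern lay 923 kb upstream, 1264 bases from the far edge of the longest contig. The signal along the stretch was not even: it was 0.69 in the outermost long contig, 3.16 around the exon and 1.77 in the last long one, chr16:6643528-6723063. The last 86.3 kb before the gene held no distal contig of the cluster, but a contig reaching into the gene span does not count as distal. An assembled locus on the same strand, chr16:6349123-6888606, ran across these 86.3 kb into the gene, at 3.01 and 2.90 RPKM in replicates 1 and 2. Rbfox1 itself was at 8.28 and 8.62 RPKM in replicates 1 and 2.

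Long clusters occurred elsewhere without comparable splicing. Distal contigs fell into 16790 clusters, of which 9088 (54.1%) were single contigs, while the 3339 clusters of 5 or more held 74.3% of contigs. Spans of 100 kb or more were reached by 113 clusters. One on the plus strand of chromosome 3 (chr3:13506140-13765491) held 31 contigs over 259 kb, 99.2% covered, but only 68 junction reads in replicate 1 and 62 in replicate 2. Reads over introns do not cross junctions, so a stretch can be well covered and show few junction reads.

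The imprinted region of chromosome 7 held another spliced group. This region, linked to Prader-Willi and Angelman syndromes in humans, gives rise to a very long non-coding transcript that hosts small nucleolar RNAs. On the minus strand, over a stretch that takes in Snord64 and Mir344, 53 supported junctions touched 21 distal contigs, with 3108 reads in replicate 1 and 2851 in replicate 2, and all 53 carried C = 1. The contig with the most junction reads was chr7:69054075-69060777, with 1864 and 1674, and an intron of 97.2 kb with 443 and 341 reads joined it to another. Near Snord64 the contig chr7:67090871-67109702 had a signal of 1.67. The later annotation has Snhg14, the host transcript of the region, between the same neighbours, at 473 TPM in replicate 1 and 375 TPM in replicate 2.

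Of the 10 contigs with the most junction reads, 5 lay at the assembled starts of chromosomes 4 and 11. At the start of chromosome 4, 4 contigs of 298 to 334 bases on the minus strand shared 34 supported junctions with 6265 reads in replicate 1 and 6059 in replicate 2, of which 20 carried C = 1. At the start of chromosome 11, 5 contigs on the plus strand shared 28 such junctions with 4232 and 4447 reads, of which 4 carried C = 1. Both groups thus had many crossing junctions, many of them over short distances. On chromosome 11 others spanned 20.3 to 23.1 kb, the best read of these with 637 and 712 reads. In the Rbfox1, Aldh1a1, Fgf12 and Cplx2 regions every supported junction carried C = 1.

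The assembled loci give distal transcription a value in each replicate, as RPKM. Such a locus, a transcript model assembled by the authors with Cufflinks, overlapped 49.8% of distal contigs on the same strand, against 44.2% of contigs within 10 kb of a gene and 81.3% of contigs on the strand of a gene. Wholly distal loci, more than 10 kb from any gene span, numbered 11030. Their median was 0.0203 RPKM, against 0.0447 over all 149233 autosomal loci. Of them, 26.4% had 2 or more exon entries, against 19.3% of all, and 63 (0.571%) reached 1 RPKM, against 3.19% of all. Exon entries were counted per locus and do not give the exons of 1 transcript. The short locus at chr18:68851711-68851951, for example, had 29.

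The replicates were compared over distal loci with a mean of at least 0.1 RPKM, on the log2(RPKM + 0.01) scale, with 1 sample on each side and no test. Of 618 loci, 44 were at least 2-fold apart (7.12%), against 7.78% of 41221 loci overall. The distal share was close to the share over all loci. Of the 44, 36 were higher in replicate 1 and 8 in replicate 2. Of the 3208 loci overall that were 2-fold apart, 1988 were higher in replicate 1 and 1220 in replicate 2.

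**Figure D5:**
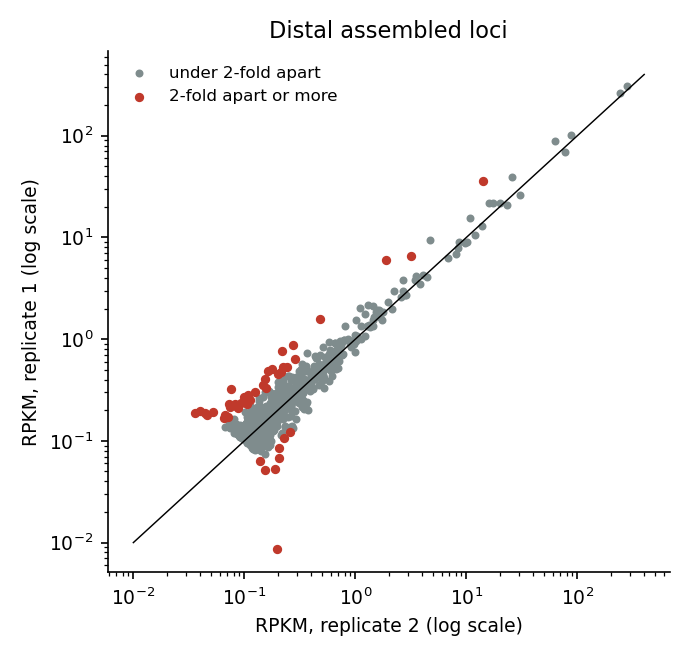
RPKM of wholly distal assembled loci with a mean of at least 0.1 RPKM in replicate 1 (y axis, log scale) and replicate 2 (x axis, log scale); each point is 1 of 618 loci, the line marks equal values, and red points are the 44 loci at least 2-fold apart. Most points lie near the line, and 36 of the red points lie above it.

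Of the 10 highest distal loci, 5 were short models with 1 exon entry over contigs of very high signal. The locus at chr6:3150768-3151736 on the plus strand had 310.3 RPKM in replicate 1 and 282 in replicate 2 (mean 296 ± 19.8, SD, n = 2). A model of 241 bases at chr1:104524737-104524977 had 264 and 239.8 RPKM (mean 252 ± 17.4, SD, n = 2). The loci at chr1:138261465-138261570 (88.6 and 62.4 RPKM), chr10:45595095-45595712 (69.0 and 76.9 RPKM) and chr6:66825320-66825814 (26.03 and 30.4 RPKM) were of the same kind. A model of 376 bases at chr2:22600339-22600714, with 8 exon entries, had 35.6 RPKM in replicate 1 and 14.2 in replicate 2. Its log2 ratio was 1.33, and it was the only one of the 10 highest that was 2-fold apart. The contig with the highest signal of all lay in no assembled locus, so it has no RPKM by replicate. High signal and high RPKM did not always go together. The contig chr18:68851702-68851974, with a signal of 2480, held a locus with 0.162 RPKM in replicate 1 and 0.107 in replicate 2. The contig with a signal of 3600 on chromosome 14 lay in a longer locus with 0.584 and 0.586 RPKM.

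Another 4 of the 10 highest were longer models with several exon entries. A locus of 148982 bases on chromosome 18 toward Zfp608 had 19 exon entries and 102 and 86.8 RPKM in replicates 1 and 2. Of the 4163494 aligned bases of its distal contigs, 4156845 lay in a single contig of 523 bases. That contig, with a signal of 164, is one of the 20 highest by signal. Its 3 supported junctions had 10 to 13 reads each over both replicates, and all carried C = 0. One of 57760 bases on chromosome 6, 267 kb from Cntnap2, a neurexin family gene, had 14 exon entries and 39.1 and 25.5 RPKM. One of 66854 bases on chromosome 14 near Lmo7 had 3 exon entries and 21.9 and 20.3 RPKM. The shortest of the 4, at chr3:124088431-124089613, had 5 exon entries and 20.7 and 23.3 RPKM. It too lay over one of the 20 contigs with the highest signal, at 37.8. The later annotation has the processed pseudogene Gm4617 between the same neighbours, at 5.24 and 5.19 TPM. RPKM of such loci is uncertain where short models hold reads shared with other copies.

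A later annotation filled some of these gaps. For 59585 distal contigs (74.7%) both neighbouring genes are in GENCODE M21 in the same order, and 71.0% of these now have some annotated gene between the neighbours. A gene on the contig's strand at 1 TPM or more in both libraries lay there for 1942 (3.26%), and for 8010 (13.4%) the gap between the neighbours is at least 10 kb shorter. Among contigs of 10 kb or more, 81 of 159 (50.9%) had either, and among those with 10 or more junction reads 28.2% of 1294 had. Position between the same neighbours does not show that the contig and the later gene overlap, since the builds were not converted.

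Some of the later genes stand beside long contigs. Between Kcna5 and Kcna1, genes of voltage-gated potassium channels, the contig chr6:126497518-126552325 on the minus strand ran over 54.8 kb with a signal of 2.36 and 847 junction reads in replicate 1 and 748 in replicate 2. The later gene there on the same strand is Gm33320, at 5.38 and 4.77 TPM. The long non-coding RNA gene 1700063D05Rik, at 7.08 and 8.33 TPM, lies between the neighbours of chr9:41018734-41025160, which had 137 and 194 junction reads. The protein-coding gene Ccdc82, at 15.5 and 15.1 TPM, lies between the neighbours of chr9:13217530-13219505, which had 452 and 349 junction reads.

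Overlap between strands was limited. Of distal contigs, 4628 (5.80%) overlapped a distal contig of the other strand, and in 139 of these the opposite signal was at least 10 times higher. It was at least 100 times higher in 0 of them.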

How the data were processed

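The contig table, junction table and assembled loci were made by the authors on mm9 for both replicates, numbered 1 and 2, which name no library; the aligner is not given in the sources used here. In the deposited contig table the coverage signal is aligned bases per base scaled to the authors' total of aligned bases, the aligned bases are counts pooled over the replicates, and an unnamed fraction runs beside them. The deposited junction table gives read counts, with each replicate's in the name. Per the file headers, RPKM values are given for each replicate of Ensembl 65 genes and of loci assembled with Cufflinks, and the mm10 gene tables give TPM and expected counts against GENCODE M4. Expected counts served only to state depth.

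From these, contigs were sorted by position, junction ends within 10 bases were assigned on the same strand, and contigs of 1 strand up to 5 kb apart were clustered, with Python 3.11.15, pandas 2.3.3, numpy 2.4.6 and scipy 1.17.1. The interval steps were tested on simulated data. A link needed 10 reads and reads in both replicates. With a single group there was nothing to test, so no p-values are given. Gene names came from the files and from GENCODE M21, which holds 87.4% of the Ensembl 65 identifiers. RefSeq promoters were matched by symbol. Sequence features of the contigs were planned but not analysed here, as no mm9 genome was used.

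Named contigs are the 20 highest by signal, the 10 highest by aligned bases, the 10 with the most junction reads, the 5 longest and the 5 farthest from a gene; named clusters are the 10 with the most aligned bases and named loci the 10 with the highest mean RPKM. Not every item so chosen is described. Linked genes, the regions described in detail and the later genes were chosen after their values were seen. Members and lists were chosen with earlier results of these data known. Alternatives varied distance, length, the unnamed fraction, junction support, overlap, cluster gap, pseudocount, RPKM minimum and replicates.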

Additional observations from a re-analysis of the deposited data

How the results depend on the processing

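The number of distal contigs was 33210 at over 50 kb from genes, 25286 at 500 bases or more, and 45826 and 24895 with the unnamed fraction at most 0.1 and 0.01, against 79795. The median signal was 0.055 at over 5 kb, 0.052 from 100 bases, 0.079 from 500 bases, and 0.075 and 0.099 at those fractions, against 0.054. The percent of distal contigs touched by a junction, 17.1, was 2.48 with 5 reads, 1.30 with 10, 18.0 with ends within 50 bases, 3.91 with a read in each replicate and 8.24 with C = 1 only, and 11.0 to 12.2 when either replicate was left out. The percent inside an assembled locus, 49.8, was 49.2 where an overlap had to cover most of the contig and 54.0 on either strand. Clusters numbered 32135 at 1 kb and 11015 at 20 kb, against 16790. Distal loci 2-fold apart numbered 14 with a pseudocount of 0.1, 1628 with no RPKM minimum and 4 from 1 RPKM, against 44. Genes joined to distal contigs numbered 83 at 20 reads and 118 with C = 1 only, against 128. They numbered 141 to 149 when either replicate was left out, but there 5 reads in the other replicate were enough for a link. The distal percent of aligned bases, 2.38, was 1.60 and 1.09 without the 1 and the 20 highest contigs. The settings with a read in each replicate, with C = 1 and without the highest contigs, and all those on joined genes, were chosen after seeing the data. In all, 11 values stayed within the interval for counting error around the main value or, for counts, within 1.5 times of it. They include the joined genes with C = 1 only and without either replicate. For each of the 10 highest loci, leaving out a replicate gives the RPKM of the other, which cannot differ from their mean by more than the SD. The locus at chr2:22600339-22600714 had 14.2 to 35.6 RPKM, against a mean of 24.9. Beyond what each setting leaves out by construction, the cause was not tested. No paired analysis was possible because there is 1 group of 2 libraries. Depth limits contigs of about 10 reads, where a splice junction can go unread.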
